A study of Mus musculus with 36 samples.

Results

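Sorted pre-B cells from the bone marrow of mice without SIRT7 were compared with pre-B cells from wild-type mice, with 2 RNA-seq libraries per genotype and 1 mouse per library. Of the 46078 rows of the deposited gene table, 16265 reached 10 normalized counts in 2 or more pre-B libraries out of 4, and these are the genes described here. Sirt7-/- mice carried a germline deletion of exons 4 to 10 of Sirt7 on the 129Sv background, so that every cell of the animal lacked them, including the stroma in which the B cells grew. Mice were 8 to 16 weeks old, and the sorted cells were not cultured. Pre-B cells were sorted as B220+IgM-CD43-, a gate that holds large cycling and small resting pre-B cells together. Pro-B cells (B220+IgM-CD43+) of the same 4 mice gave 4 further libraries, which entered the statistical fit and serve as a reference for the earlier stage. Of the genes described, 375 had a second highest value under 12, just inside this limit, and 503 genes with a second highest value between 8 and 10 lay just outside it. The study generated replicates on different days, and the labels do not say which libraries share a day.

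The labels disagree on the stage of some libraries. Titles and column names give each mouse 1 pro-B and 1 pre-B library, whereas the cell type label calls all replicate 1 libraries pro-B and all replicate 2 libraries pre-B. Markers followed the titles: Il2ra, which encodes the CD25 chain of the IL-2 receptor and marks pre-B cells, had 25620.4 and 26038 normalized counts in the wild-type and 17564 and 16329 in the Sirt7-/- libraries titled pre-B, against 3759.9 and 3339 in wild-type and 1648 and 1593 in Sirt7-/- libraries titled pro-B. Dntt, which encodes the terminal transferase of pro-B cells, was at 19432 normalized counts or more in every library titled pro-B and at 3838 or fewer in every library titled pre-B. The titles were used throughout.

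In the bone marrow, a pro-B cell rearranges its immunoglobulin heavy chain genes and, once a heavy chain is made, pairs it with the surrogate light chain, built from VpreB and λ5, to form the pre-B cell receptor. Signals from this receptor and from the IL-7 receptor drive large pre-B cells through several divisions, after which they leave the cell cycle, switch off the surrogate light chain and recombine their light chain genes. Pax5, Ebf1 and the E2A proteins hold the B cell identity through these steps. SIRT7 is an NAD+-dependent deacetylase of chromatin and the nucleolus, and the study asked what its loss does to the transcriptome at these stages.

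Each pre-B library held between 50004827 and 52103361 reads, and mitochondrial transcripts took between 6.54% and 7.33% of the normalized counts. B lineage genes were abundant in all 4 libraries. Pax5, the factor that commits cells to the B lineage, had 146580 and 125289 normalized counts in the wild-type and 129510 and 120493 in the Sirt7-/- libraries. Of 8 genes of B lineage identity, 1 was higher and 1 lower without overlap between the genotypes (beside 22.8% and 20.3% of all genes). Their median log2 fold change was -0.098. Y-linked transcripts were present in all 4 mice, with Ddx3y at 2596 and 3364 in the wild-type and 2204 and 2541 in the Sirt7-/- libraries. Xist, which female cells express from the inactive X, had 16.7 and 190.2 normalized counts in the wild-type and 3.20 and 14.8 in the Sirt7-/- pre-B libraries, and 228 in the pro-B library of wild-type replicate 2, so that this mouse stood above the others.

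The targeted gene checked the genotypes. Sirt7 (chr11:120618372-120625240, minus strand, mm10) had 5613 and 5219 normalized counts in the wild-type and 1066 and 821 in the Sirt7-/- libraries. Wild-type cells held 5416 ± 278 and Sirt7-/- cells 943 ± 174 normalized counts (SD, n = 2 each; log2 fold change -2.53, SE 0.143, limma adjusted p = 0.00931). The count of the gene includes reads from exons outside the deletion. Pcyt2, which encodes an enzyme of phosphatidylethanolamine synthesis and is the next gene on the same strand (chr11:120610087-120617936, minus strand), had 2395 and 2439.9 normalized counts in the wild-type and 1003 and 628 in the Sirt7-/- libraries. Its log2 fold change was -1.61 (limma adjusted p = 0.0715), and in pro-B cells it had 2665 and 2582 in the wild-type against 569 and 634 in the Sirt7-/- libraries. Whether the deletion itself acts on Pcyt2 was not tested. The log2 fold changes of the other 6 sirtuin genes ran from -0.099 for Sirt1 to 0.38 for Sirt4, with 0 of the 6 called by limma, edgeR or DESeq2 and 1, Sirt4, at an unadjusted limma p under 0.05.

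Across the genome, 15 genes passed a limma adjusted p under 0.05 in pre-B cells, 11 higher and 4 lower without SIRT7. Limma was fitted on log2(normalized count + 1), and fold changes are on that scale. The 15 calls were 0.0850% of the 17649 genes tested, 0.0623% higher and 0.0227% lower. Count models on the reads recovered from the table gave other numbers: edgeR called 5 genes (0.0283%), all among the 15, and DESeq2 called 728 of 14911 genes with an adjusted p (4.88%), 504 higher (3.38%) and 224 lower (1.50%), which included all 15. The 4 pre-B libraries fitted alone gave 0 limma calls, with 1651 genes at an unadjusted p under 0.05. At an unadjusted p under 0.05, limma had 2292 of the 16265 genes (14.1%). For a single gene, permuting 4 libraries in an exact test gives a two-sided p of 0.33 at the least. Each limma call rests on the gene's own spread within the 4 groups and on spread estimated across genes. The former had 4 degrees of freedom and the latter 2.9. Each pre-B library is from a separate mouse, and the column names tie it to the pro-B library of that mouse.

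Among abundant genes, Lsm12, Nudcd3, Elmo2 and Bri3bp rose and Tuba1a fell. Lsm12 (chr11:102162497-102185296, minus strand), which encodes an RNA-binding protein of the LSM family, had 733 and 853 normalized counts in the wild-type and 4111 and 4601 in the Sirt7-/- libraries (log2 fold change 2.46, SE 0.160, limma adjusted p = 0.0106). The Sirt7-/- pre-B values were within the range of pro-B cells, where Lsm12 had 4168 and 5044 in the wild-type and 5009 and 3971 in the Sirt7-/- libraries, so that the wild-type pre-B libraries were the 2 low ones of 8. Elmo2, an adaptor of the Rac activator DOCK, followed the same order, with 1443 and 1538 normalized counts in the wild-type and 3432 and 3819 in the Sirt7-/- libraries (log2 fold change 1.28, SE 0.114, limma adjusted p = 0.0275) and between 3787 and 4461 in pro-B cells. Nudcd3, a co-chaperone of dynein, went the other way: it had 2384 and 2229 normalized counts in the wild-type and 5766 and 5598 in the Sirt7-/- libraries (log2 fold change 1.30, SE 0.0952, limma adjusted p = 0.0108) and at most 2752 in any pro-B library, so that the Sirt7-/- pre-B libraries were the 2 high ones. Bri3bp had 695 and 688 normalized counts in the wild-type and 1269 and 1354 in the Sirt7-/- libraries (log2 fold change 0.92, SE 0.0997, limma adjusted p = 0.0457), with all 4 pro-B libraries at 2776 or more.

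Tuba1a (chr15:98949837-98953703, minus strand), which encodes an α-tubulin, had 11961 and 12357 normalized counts in the wild-type and 3713 and 4583 in the Sirt7-/- libraries (log2 fold change -1.56, SE 0.115, limma adjusted p = 0.0108). Here the wild-type pre-B libraries stood above the pro-B cells, at between 6939 and 7627, and the Sirt7-/- pre-B libraries below them. Tuba1a shares much of its sequence with Tuba1b and Tuba1c, and reads could have been split among them. Tuba1b had 21574 and 25411 normalized counts in the wild-type and 31974 and 43548 in the Sirt7-/- libraries and Tuba1c 18214 and 20335 in the wild-type and 25429.9 and 34883 in the Sirt7-/- libraries, so that both were higher where Tuba1a was lower (both named after their values were seen).

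Among scarcer genes, 2 that rose encode 2'-5' oligoadenylate synthetases, enzymes that sense double-stranded RNA and are induced by interferon. Oas1a had 53.3 and 49.2 normalized counts in the wild-type and 217 and 224 in the Sirt7-/- libraries (log2 fold change 2.09, SE 0.205, limma adjusted p = 0.0381), and Oas3 had 16.7 and 20.8 normalized counts in the wild-type and 117 and 145 in the Sirt7-/- libraries (log2 fold change 2.74, SE 0.272, limma adjusted p = 0.0381). Slc25a31, a mitochondrial ADP/ATP carrier known from the germ line, had 62.7 and 59.0 in the wild-type libraries and 0 reads in both Sirt7-/- libraries (limma adjusted p = 0.0381), a level at least 20.3-fold lower when 3 counts per group mean are taken as the floor. It was also at 0 in both Sirt7-/- pro-B libraries.

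A further 5 called genes were at 0 in both wild-type pre-B libraries. Arhgef10, a guanine nucleotide exchange factor, had 28.8 and 44.3 normalized counts in the Sirt7-/- libraries, at least 12.2-fold higher than the same floor, and Gm3839 had 45.8 and 72.7, at least 19.8-fold above it. 1500009L16Rik had 18.1 and 32.7, the antisense transcript Gm15947 14.9 and 14.8 and the lincRNA Gm11579 12.8 and 15.8. All 5 were expressed in pro-B cells of both genotypes, with Gm11579 for example at 180.4 and 163 in the wild-type and 176 and 172 in the Sirt7-/- libraries. Of the 15 called genes edgeR called Sirt7, Lsm12, Nudcd3, Elmo2 and Tuba1a, and none of these 5. The calls of Sirt7, Lsm12, Arhgef10 and Gm3839 held with any 1 of the pre-B libraries left out, and each of the other 11 was lost without at least 1 library. With the replicate number as a block, 7 calls held (Sirt7, Lsm12, Nudcd3, Elmo2, Tuba1a, Arhgef10 and Gm3839), and Oas1a, Oas3, Bri3bp, Slc25a31, 1500009L16Rik, Gm15947 and Gm11579 had a limma adjusted p of 0.0703. With the estimated pro-B share subtracted, Oas1a, Oas3, Bri3bp, 1500009L16Rik, Gm15947 and Gm11579 were no longer called, at limma adjusted p-values between 0.0739 and 0.572. Their log2 fold changes were then 1.95 for Oas1a, 3.27 for Oas3 and 0.89 for Bri3bp, near or above those reported, and 3.42 for 1500009L16Rik, 2.69 for Gm15947 and 1.32 for Gm11579, below the 4.67, 3.98 and 3.93 fitted without it (with the wild type at 0, these 3 depend on the pseudocount). Whether same-numbered libraries share a day was not given in the sources used here.

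**Figure D1:**
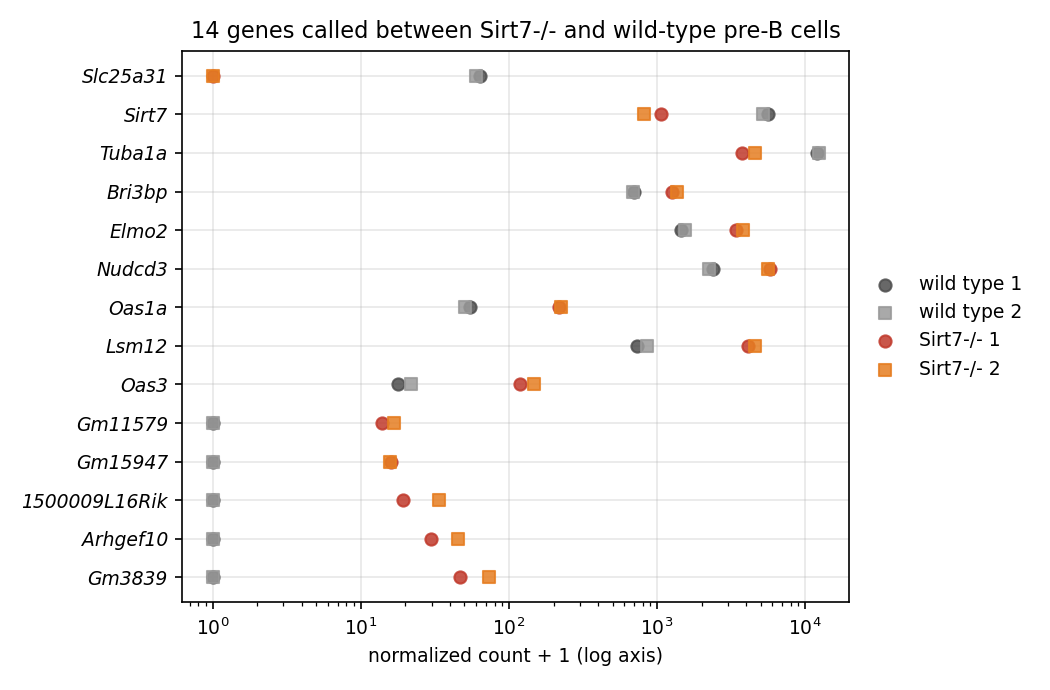
Normalized count plus 1 (log axis) of 14 called genes in each of the 4 pre-B libraries, ordered by log2 fold change. In each gene both Sirt7-/- points lie on one side of both wild-type points, from Slc25a31, which had 0 reads in both Sirt7-/- libraries, to Gm3839, which had 0 in both wild-type libraries.

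Beyond the called genes, each gene list below is described by how many of its genes kept the libraries of the genotypes apart, that is, had both Sirt7-/- values above or below both wild-type values. Over all 16265 genes, 3703 were higher in this sense (22.8%) and 3294 lower (20.3%), 51.8% had a log2 fold change above 0, and the median was 0.015. The libraries of one genotype also differed from each other: of 10550 genes averaging 200 or more, 246 differed at least 2-fold between the wild-type and 327 between the Sirt7-/- libraries. Each Sirt7-/- library is therefore also set alone against the mean of the wild-type libraries, on the log2 scale. Of the genes in these lists, Sirt7 and Oas1a were called by limma. Over all genes with a DESeq2 adjusted p, 3.38% were called higher and 1.50% lower, the reference for the DESeq2 counts below.

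**Figure D2:**
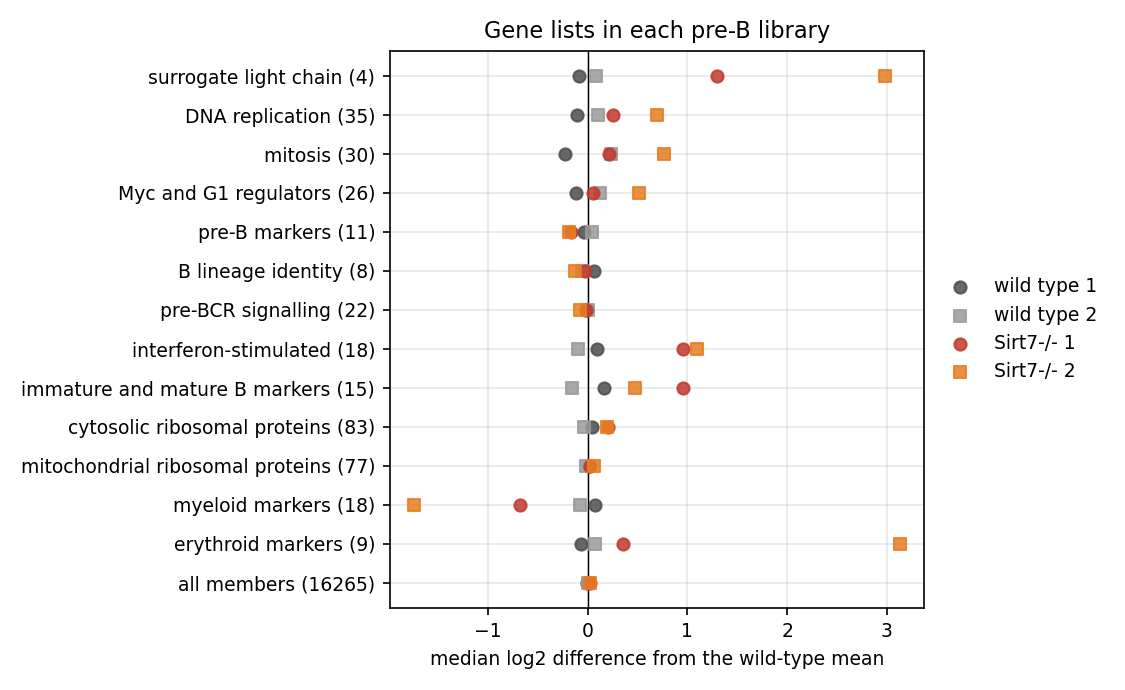
Median log2 difference from the wild-type mean for 13 gene lists and for all genes (number of genes in brackets), with 1 point per pre-B library. Sirt7-/- replicate 2 stands farthest out for the surrogate light chain, DNA replication, mitosis, myeloid and erythroid lists, Sirt7-/- replicate 1 for the immature and mature B markers, and both lie close together for the interferon-stimulated and ribosomal protein lists.

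The surrogate light chain genes were higher in both Sirt7-/- libraries. Vpreb1 (chr16:16868403-16870843, minus strand), one of the VpreB chains, had 288 and 348 normalized counts in the wild-type and 982 and 3268 in the Sirt7-/- libraries. On the log2 scale the difference was 2.50 (SE 0.484, limma adjusted p = 0.132, DESeq2 adjusted p = 7.8e-08). Vpreb2, a near-identical copy whose reads could be shared with Vpreb1, had 33.5 and 35.0 normalized counts in the wild-type and 123 and 458 in the Sirt7-/- libraries. Igll1 (chr16:16860671-16863985, minus strand), which encodes λ5, had 494 and 926 normalized counts in the wild-type and 1324 and 4122 in the Sirt7-/- libraries. Vpreb3, which is kept by later B cells, had 58793 and 59416 normalized counts in the wild-type and 65265 and 61886 in the Sirt7-/- libraries. All 4 genes were higher without overlap, 3 of them called by DESeq2, and their median was 2.14, with 1.30 in Sirt7-/- replicate 1 and 2.99 in replicate 2. Sirt7-/- replicate 2 was the high library for Vpreb1, Vpreb2 and Igll1, and replicate 1 lay between it and the wild type.

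E2A and related factors bind E-boxes in the promoters of B lineage genes. In the RefSeq promoter windows of 300 bases (GRCm38.p6, 250 bases before to 50 after the start), the letters CAGGTG occurred on either strand in 3 of the 4 surrogate light chain genes and in 21.1% of the 10058 described genes with a window. The stretches of 100 bases around the match are shown 5' to 3' because these are the genes whose silencing marks the small pre-B cell, with the match in capitals (CACCTG is the same letters on the other strand). The Vpreb1 and Vpreb2 stretches hold the same bases from the match to the end of the Vpreb1 stretch, so that their matches are not independent. The matches are a description of sequence and do not show binding.
Vpreb1, chr16:16869291-16869390, minus strand: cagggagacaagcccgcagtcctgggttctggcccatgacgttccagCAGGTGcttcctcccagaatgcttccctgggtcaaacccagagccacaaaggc
Vpreb2, chr16:17980315-17980414, plus strand: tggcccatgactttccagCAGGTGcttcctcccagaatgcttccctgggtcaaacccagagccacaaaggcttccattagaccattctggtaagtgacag
Igll1, chr16:16863941-16864040, minus strand: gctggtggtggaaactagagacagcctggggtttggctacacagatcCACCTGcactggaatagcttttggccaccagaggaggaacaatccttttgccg

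Since each mouse gave both stages, pre-B values can be read as a percentage of the pro-B value of the same mouse. Vpreb1 stood at 1.81% and 1.96% in the wild-type mice, 4.08% in Sirt7-/- replicate 1 and 15.7% in replicate 2. Dntt stood at 0.673% and 0.587% against 1.40% and 12.5%, or 131 and 157 normalized counts in the wild-type and 423 and 3838 in the Sirt7-/- libraries. The genotypes did not overlap for either gene, and Sirt7-/- replicate 2 was the outlying library for both. Kit, the receptor for stem cell factor that pro-B cells carry, gave another order, with 2.46% and 4.56% in the wild-type mice, 1.03% in Sirt7-/- replicate 1 and 16.6% in replicate 2, so that replicate 1 was the lowest of all. The median over Kit, Flt3, Dntt and Spn, the 4 pro-B genes taken as a measure of pro-B transcripts, was 6.03% and 3.21% in the wild-type and 4.44% and 19.0% in the Sirt7-/- mice. In Sirt7-/- replicate 1 this measure was between the wild-type values, with Kit at 1.03%, Flt3 at 7.48%, Dntt at 1.40% and Spn at 28.0%. Vpreb1 and Vpreb2 were above both wild-type mice there, as was Dntt, itself part of the measure. The part of pro-B transcripts in these values was not tested. With the measured share of pro-B transcripts subtracted from each library, Vpreb1, Vpreb2 and Dntt came to 0 in all 4 pre-B libraries. Igll1 turned to -1.96 on the log2 scale, so that the direction of these genes rests on values taken without the subtraction. In bulk libraries, a larger share of cells with a transcript and more transcript per cell cannot be told apart.

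**Figure D3:**
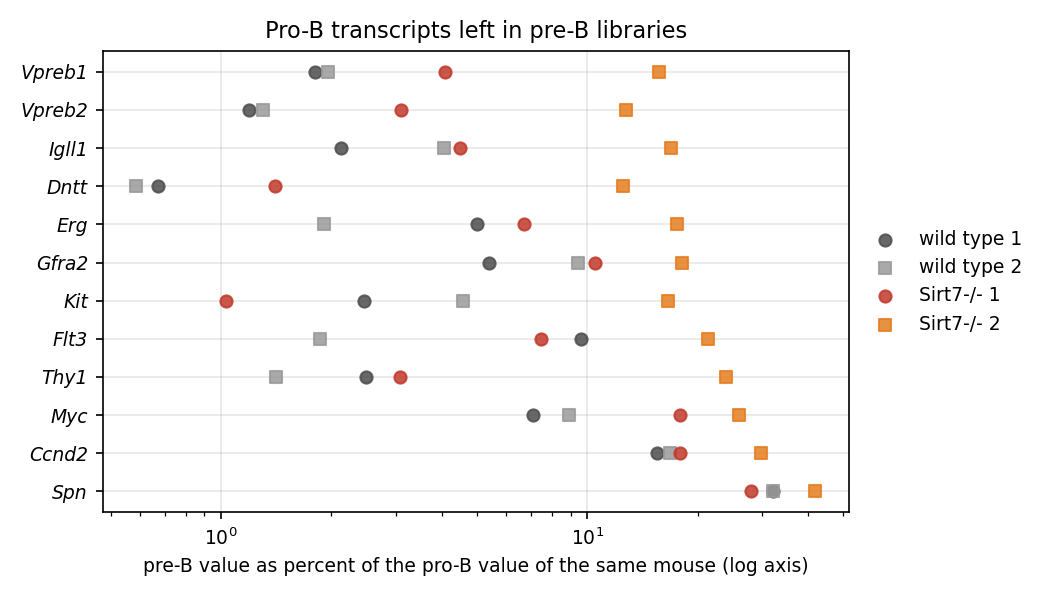
Pre-B value as a percentage of the pro-B value of the same mouse (log axis) for 12 genes of pro-B and large pre-B cells. Sirt7-/- replicate 2 is the rightmost point for every gene, and Sirt7-/- replicate 1 lies beyond both wild-type points for Vpreb1, Vpreb2, Igll1, Dntt, Erg, Gfra2, Thy1, Myc and Ccnd2, but not for Kit, Flt3 and Spn.

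Of 11 markers of pro-B cells, 4 were higher and 2 lower without overlap (beside 22.8% and 20.3% of all genes), and the median was 0.22, with 0.0074 in Sirt7-/- replicate 1 and 0.55 in replicate 2. Sirt7-/- replicate 1 was above both wild-type libraries in 4 of them and below both in 5, and replicate 2 was above both in 9 and below both in 2. The higher ones were Dntt, Flt3, Erg and Gfra2, all called by DESeq2, and the lower ones Il7r and Cd93. Cd93, a receptor of early B cells and the most abundant of the list, had 67379 and 71258 normalized counts in the wild-type and 51453 and 53739 in the Sirt7-/- libraries (log2 fold change -0.40, limma adjusted p = 0.153, DESeq2 adjusted p = 0.00781). Erg, an ETS factor of progenitors, had 347 and 149 normalized counts in the wild-type and 650.4 and 1646 in the Sirt7-/- libraries (log2 fold change 2.18, limma adjusted p = 0.161). Gfra2, a GDNF family receptor, had 348 and 803 normalized counts in the wild-type and 1048 and 1793 in the Sirt7-/- libraries, and Runx2, a Runt factor, 65.9 and 62.3 in the wild-type and 89.6 and 528 in the Sirt7-/- libraries. In each the highest value was that of Sirt7-/- replicate 2, and replicate 1 lay above both wild-type libraries. Mef2c, a MADS-box factor that pre-B receptor signals use, had 3143 and 2911 normalized counts in the wild-type and 4108 and 7581 in the Sirt7-/- libraries in pre-B cells and 3004 and 3231 in wild-type pro-B cells, a like level, and Myc, the driver of pre-B growth, 552 and 449 in the wild-type and 983 and 1902 in the Sirt7-/- libraries. Of the 30 B lineage transcription factors, 9 were higher and 10 lower without overlap (30.0% and 33.3%, beside 22.8% and 20.3% of all genes). Their median was -0.038. Among the lower ones, Bach2, a repressor needed in pre-B cells, had 52444 and 51591 normalized counts in the wild-type and 37898 and 38694 in the Sirt7-/- libraries. Tcf12, which encodes the E protein HEB, had 14375 and 14453 normalized counts in the wild-type and 7543 and 9449.8 in the Sirt7-/- libraries (log2 fold change -0.77, DESeq2 adjusted p = 0.00337).

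Genes of DNA replication were higher in Sirt7-/- pre-B cells in 34 of 35 cases. Without overlap, 22 were higher (62.9%, beside 22.8% of all genes) and 0 lower. The median log2 fold change was 0.47, with 0.25 in Sirt7-/- replicate 1 and 0.70 in replicate 2, and 10 of the 35 were called by DESeq2. Mcm5, a subunit of the replicative helicase, had 6009 and 6569 normalized counts in the wild-type and 8467 and 12175 in the Sirt7-/- libraries (log2 fold change 0.69, limma adjusted p = 0.165). Cdc6, which loads that helicase, had 1446 and 1483 normalized counts in the wild-type and 2158 and 2992 in the Sirt7-/- libraries, the largest fold change of the list at 0.79. Rrm2, the small subunit of ribonucleotide reductase, had 9115 and 10596 normalized counts in the wild-type and 13333 and 16221 in the Sirt7-/- libraries. Replicate 2 was the highest library for each of the 3 genes, and replicate 1 was above both wild-type libraries. Gins2 was the exception, at 3113 and 3999.9 in the wild-type and 2401 and 3488 in the Sirt7-/- libraries.

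All 30 mitosis genes had a higher mean in Sirt7-/- cells, but the wild-type mice differed among themselves here. The median was 0.50, with 0.22 in Sirt7-/- replicate 1 and 0.77 in replicate 2, while the wild-type libraries lay at -0.23 and 0.23, so that Sirt7-/- replicate 1 was level with wild-type replicate 2. Mki67, the most abundant of the list, had 31857 and 48299 normalized counts in the wild-type and 41322 and 65706 in the Sirt7-/- libraries, and the genotypes overlapped. Plk1, a mitotic kinase, had 4194 and 5402 normalized counts in the wild-type and 6299.9 and 9204 in the Sirt7-/- libraries and did not overlap. In all, 15 of the 30 genes kept the genotypes apart (50.0%, beside 22.8% of all genes higher in this sense). For Sirt7-/- replicate 2 alone, 30 of 30 lay above both wild-type libraries, beside 6286 of all 16265 genes. Of the Myc and G1 regulators, 10 of 26 were higher and 4 lower without overlap (38.5% and 15.4%, beside 22.8% and 20.3% of all genes). Ccnd2, which encodes cyclin D2, had 1739 and 1709 in the wild-type and 2183 and 3279.9 in the Sirt7-/- libraries. In pro-B cells of the same mice the medians were -0.011 for replication and -0.021 for mitosis. The share of pro-B transcripts was also highest in Sirt7-/- replicate 2. With that share taken out of each library, the medians were 0.38 and 0.47. That share is the median over Kit, Flt3, Dntt and Spn, which ran from 0.673% for Dntt to 32.2% for Spn in wild-type replicate 1. The subtraction also took Vpreb1, Vpreb2 and Dntt to 0 in every pre-B library, so that it removed too much. The part of pro-B transcripts in the replication and mitosis differences was not tested.

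E2F factors switch on replication genes at the end of G1, and the CHR element is used by genes of G2 and mitosis. The letters TTTCCCGC or TTTGGCGC, of the E2F consensus, occurred on either strand in 11 of the 28 replication genes with a promoter window against 3.37% of all described genes, and the CHR letters TTTGAA in 17 of 24 mitosis genes against 14.5%. The searched motifs do not contain one another, though matches may share bases with other sites. The Mcm5 and Mcm6 stretches are shown as examples with the E2F letters in capitals (GCGCCAAA is TTTGGCGC on the other strand), and Mcm6 itself had 4338 and 4851 normalized counts in the wild-type and 5501 and 7824 in the Sirt7-/- libraries.
Mcm5, chr8:75109314-75109413, plus strand: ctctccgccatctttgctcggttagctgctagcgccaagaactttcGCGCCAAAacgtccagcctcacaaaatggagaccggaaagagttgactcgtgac
Mcm6, chr1:128359762-128359861, minus strand: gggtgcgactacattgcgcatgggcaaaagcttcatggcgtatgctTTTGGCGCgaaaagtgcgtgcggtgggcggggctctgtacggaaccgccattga

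Interferon-stimulated genes were higher in both Sirt7-/- libraries to about the same extent. Of 18 rows (Gbp6 is listed on 2), 15 had a positive log2 fold change and 6 were called by DESeq2. Without overlap, 13 were higher and 1 lower (72.2% and 5.56%, beside 22.8% and 20.3% of all genes). The median was 1.04, with 0.96 in Sirt7-/- replicate 1 and 1.10 in replicate 2. Oas2, the third synthetase of the cluster on chromosome 5, had 97.2 and 59.0 normalized counts in the wild-type and 344 and 491 in the Sirt7-/- libraries (log2 fold change 2.42, limma adjusted p = 0.0776). Ifi44 had the largest fold change of the list, 2.98, with 29.3 and 12 normalized counts in the wild-type and 109 and 221 in the Sirt7-/- libraries. These genes were scarce, and Oas1a belongs to a family of similar copies among which reads could be split.

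Among the more abundant genes of the list, Irf7, the factor that amplifies interferon production, had 282 and 256 normalized counts in the wild-type and 547 and 581 in the Sirt7-/- libraries. Xaf1, which interferon induces, had 3313 and 2463 normalized counts in the wild-type and 4525 and 4839 in the Sirt7-/- libraries, and Bst2, which tethers virions, 167 and 141 in the wild-type and 287 and 546 in the Sirt7-/- libraries. In all 3 both Sirt7-/- values were above both wild-type values. Ifit2 had the lowest fold change, -0.90, with 219 and 200.05 in the wild-type and 33.1 and 371 in the Sirt7-/- libraries, which lay on either side of the wild type. In pro-B cells of the same mice, 17 of the 18 rows were higher as well, with a median of 0.49, and Oas1a had 213 and 176 against 485 and 560.0. Health or infection status of the mice was not given in the sources used here.

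The letters GAAA, any 2 bases and GAAA again, the core of the interferon-stimulated response element, occurred on either strand in 8 of the 12 genes of this list with a promoter window and in 3.66% of all described genes. The Oas1a and Isg15 windows, shown for the called gene and for a widely used reporter of the response, hold 2 and 3 overlapping matches. Isg15 had 16.7 and 8.75 normalized counts in the wild-type and 42.6 and 33.7 in the Sirt7-/- libraries.
Oas1a, chr5:120907491-120907590, minus strand: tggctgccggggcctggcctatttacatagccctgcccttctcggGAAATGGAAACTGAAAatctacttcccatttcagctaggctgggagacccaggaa
Isg15, chr4:156200842-156200941, minus strand: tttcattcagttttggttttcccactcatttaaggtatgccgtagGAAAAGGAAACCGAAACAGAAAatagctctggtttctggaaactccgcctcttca

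**Figure D4:**
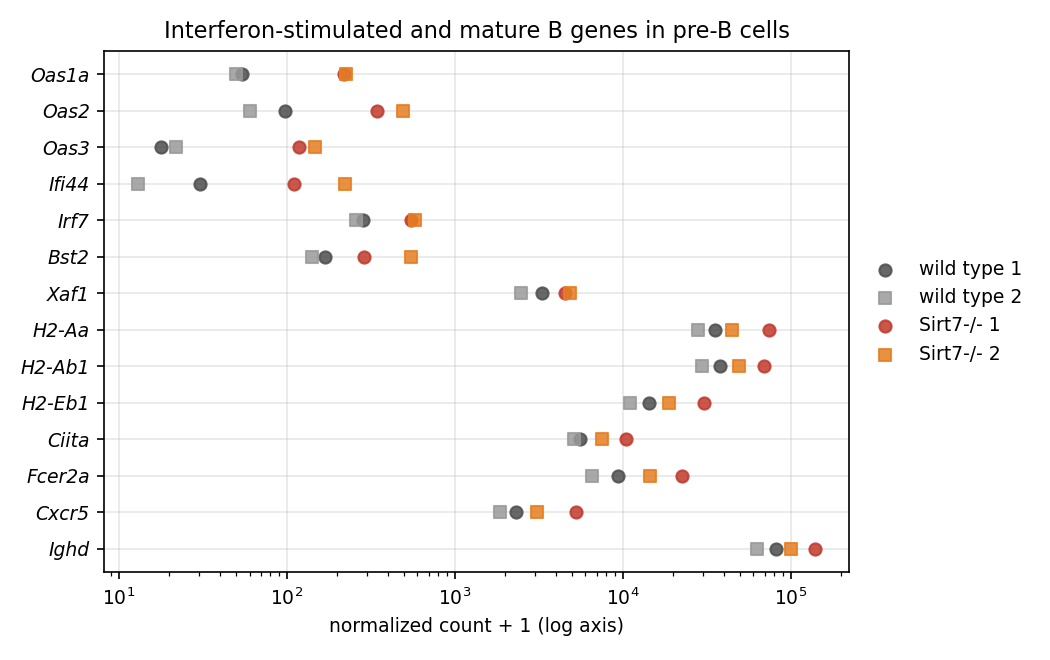
Normalized count plus 1 (log axis) of 7 interferon-stimulated genes (Oas1a to Xaf1) and 7 genes of MHC class II and of mature B cells (H2-Aa to Ighd) in each pre-B library. Both Sirt7-/- points lie to the right of both wild-type points for all 14 genes, with replicate 1 the higher one in all 7 genes of the lower block.

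Markers of immature and mature B cells were also higher, here most in Sirt7-/- replicate 1. Several were already expressed in wild-type pro-B cells, with H2-Aa at 9639 and 9489 normalized counts and Ighd at 10907 and 9999. Fcer2a was low there, at 179 and 154. Of 15 immature and mature B markers, 14 had a positive log2 fold change and 7 were called by DESeq2. Without overlap, 10 were higher (66.7%, beside 22.8% of all genes) and 0 lower. The median was 0.72, with 0.96 in Sirt7-/- replicate 1 and 0.47 in replicate 2, and replicate 1 exceeded replicate 2 in all 15 genes. Fcer2a, which encodes CD23, had 9419 and 6540.4 normalized counts in the wild-type and 22522 and 14430.1 in the Sirt7-/- libraries (log2 fold change 1.20, limma adjusted p = 0.201). The MHC class II gene H2-Aa had 35352 and 28199 normalized counts in the wild-type and 73958 and 44899 in the Sirt7-/- libraries, and Ciita, the master regulator of class II, 5553 and 5143 in the wild-type and 10521 and 7492 in the Sirt7-/- libraries. Both genes kept the genotypes apart, with Sirt7-/- replicate 1 highest. Cxcr5, a chemokine receptor of follicular B cells, had 2320.1 and 1855 normalized counts in the wild-type and 5237 and 3075 in the Sirt7-/- libraries. Ighd, the IgD constant region, had 82047 and 63406 normalized counts in the wild-type and 140086 and 100170 in the Sirt7-/- libraries, while Cd74, the most abundant gene of the list, had 148970 and 62189 normalized counts in the wild-type and 164490 and 102782 in the Sirt7-/- libraries and overlapped. The wild-type libraries themselves had medians of 0.16 and -0.16. The gate removed cells with surface IgM, and the number of later B cells left in each sort was not measured.

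The cytosolic ribosomal protein genes differed little but mostly in one direction. Of 83 genes, 79 had a positive log2 fold change and 65 were higher without overlap (78.3%, against 22.8% of all genes), with 0 lower. The median was 0.20, with 0.21 in Sirt7-/- replicate 1 and 0.19 in replicate 2, and the wild-type libraries lay at 0.039 and -0.039. Rps2 had 12794 and 10050.5 normalized counts in the wild-type and 15633 and 16235 in the Sirt7-/- libraries and Rpl3 11592 and 11614 in the wild-type and 14969 and 13984 in the Sirt7-/- libraries. DESeq2 called 6 of the 83, limma and edgeR 0, and 32 were higher at an unadjusted limma p under 0.05. The same list had a median of 0.12 in pro-B cells. The 77 mitochondrial ribosomal protein genes had a median of 0.053, and the 31 genes of ribosomal RNA synthesis and the nucleolus, where SIRT7 is known to act, had 0.11, with 11 higher and 1 lower without overlap. Many ribosomal protein genes have processed pseudogenes that could share reads.

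Of 11 pre-B markers, 5 were lower and 2 higher without overlap (20.3% and 22.8% of all genes), and the median was -0.24, with -0.16 in Sirt7-/- replicate 1 and -0.19 in replicate 2. Il2ra, given above, had a log2 fold change of -0.61 (limma adjusted p = 0.0903, DESeq2 adjusted p = 5.8e-06) and was lower in both Sirt7-/- libraries by a like amount. It was lower in pro-B cells too, with a log2 fold change of -1.13 there (limma adjusted p = 0.0133). Of the 11 markers, 3 had a positive log2 fold change in pro-B cells, and the median there was -0.16. Irf4, which with IRF8 opens light chain recombination, had 34036 and 40382 normalized counts in the wild-type and 28185 and 28776 in the Sirt7-/- libraries. Rag1, a subunit of the V(D)J recombinase, had 53919.5 and 71115 normalized counts in the wild-type and 32407 and 45261 in the Sirt7-/- libraries, and its partner Rag2 8565 and 11984 in the wild-type and 7301 and 9205 in the Sirt7-/- libraries, which overlapped. Spib, an ETS factor, had 196367 and 208514 normalized counts in the wild-type and 172811 and 153494 in the Sirt7-/- libraries. Both Sirt7-/- values lay below both wild-type values for Irf4, Rag1 and Spib. Cd22, an inhibitory co-receptor, was on the other side, with 19281 and 11407 normalized counts in the wild-type and 28349 and 20088 in the Sirt7-/- libraries, as was Bcl6, a repressor that protects pre-B cells, with 3387 and 3986 normalized counts in the wild-type and 4723 and 5125 in the Sirt7-/- libraries.

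The 22 genes of pre-B receptor signalling had a median of -0.094, with 6 higher and 7 lower without overlap. The 14 genes of the IL-7 receptor and STAT5 had -0.012, with 5 and 6. Beside these counts and those of the next lists stand 22.8% of all genes higher and 20.3% lower without overlap. Il7r had 16274 and 23977 normalized counts in the wild-type and 14147 and 15877 in the Sirt7-/- libraries. The 16 genes of V(D)J recombination and end joining had a median of -0.031, with 5 higher and 5 lower without overlap. Of the 17 genes of the BCL2 family, Bcl2, which blocks apoptosis, had 667 and 629 normalized counts in the wild-type and 1389 and 1087 in the Sirt7-/- libraries (log2 fold change 0.92, limma adjusted p = 0.152, DESeq2 adjusted p = 0.00244), and the family's median was 0.031. The p53 targets had a median of -0.0091 over 14 genes. Genes of Myc and G1 had 0.22 over 26, with 0.052 in Sirt7-/- replicate 1 and 0.51 in replicate 2 and 10 higher and 4 lower without overlap. Genes of glucose and energy use had 0.18 over 15, with 9 higher and 1 lower, those of homing and adhesion 0.074 over 18, with 6 and 4, and those of the unfolded protein response 0.0078 over 14, with 3 and 4.

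Pax5 activates a set of B cell genes and represses genes of other lineages. Of 14 genes that it activates, 7 were lower and 2 higher without overlap (50.0% and 14.3%, beside 20.3% and 22.8% of all genes), and the median was -0.098, with -0.086 in Sirt7-/- replicate 1 and -0.15 in replicate 2. The lower ones were Irf4, Spib, Bach2, Blnk, Cd72, Ikzf3 and Foxo1, of which Irf4, Spib and Ikzf3 also stand among the pre-B markers. DESeq2 called 3 of the 14 lower (Irf4, Spib and Bach2, all with values above) and 0 higher, and limma and edgeR called 0, with 3 lower at an unadjusted limma p under 0.05. Of 12 genes that Pax5 represses, 3 were higher and 4 lower without overlap, and the median was 0.19, with -0.091 in Sirt7-/- replicate 1 and 0.53 in replicate 2.

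Immunoglobulin variable genes give a view of recombination. The 123 heavy chain V genes had a median of -0.031 and the 117 κ V genes 0.072, with the κ sum at 35046 and 37718 in the wild-type and 42853 and 37860.1 in the Sirt7-/- libraries. The 3 λ V genes were lower in both Sirt7-/- libraries, with Iglv1 at 6312 and 3724 in the wild-type and 2991 and 2331 in the Sirt7-/- libraries. Its limma adjusted p was 0.545. V genes are near-identical copies, and the values of any one are uncertain.

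Transcripts of other cell types differed between the libraries, the myeloid ones by genotype. Of 18 myeloid markers, 13 were lower and 2 higher without overlap (72.2% and 11.1%, beside 20.3% and 22.8% of all genes). The median was -1.11, with -0.68 in Sirt7-/- replicate 1 and -1.74 in replicate 2. Sirt7-/- replicate 1 lay below both wild-type libraries in 15 of the 18 and replicate 2 in 14. The summed level was 27076 and 23041 in the wild-type and 16905 and 12813 in the Sirt7-/- libraries. Mpo, the peroxidase of neutrophil granules, had 1415 and 1609 normalized counts in the wild-type and 682 and 318 in the Sirt7-/- libraries, and Ngp, neutrophilic granule protein, 8841 and 5699 in the wild-type and 3761 and 1134 in the Sirt7-/- libraries. Itgam, an integrin chain and the most abundant of the list, had 8991 and 9149.8 in the wild-type and 8351 and 9154 in the Sirt7-/- libraries. The erythroid difference was mostly that of Sirt7-/- replicate 2: the 9 erythroid markers had medians of 0.36 in Sirt7-/- replicate 1 and 3.13 in replicate 2. Hba-a1, an α-globin gene and the most abundant of the list, had 2365 and 2734 normalized counts in the wild-type and 3230.4 and 22303 in the Sirt7-/- libraries, and the summed erythroid level was 6269 and 8707 against 9060.2 and 74745.

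Immediate early and heat shock genes, which the handling and dissociation of cells can induce, were compared as a list of 18. Of these, 15 had a positive log2 fold change, and 10 were higher and 0 lower without overlap (55.6%, beside 22.8% of all genes). The median was 0.57, with 0.35 in Sirt7-/- replicate 1 and 0.66 in replicate 2, while the wild-type libraries lay at 0.21 and -0.21. Sirt7-/- replicate 1 was above both wild-type libraries in 13 of the 18 and replicate 2 in 12. The summed level was 143252 and 102948 in the wild-type and 138811 and 226875 in the Sirt7-/- libraries, so that the sum of replicate 1 lay between the wild-type sums. Fos, which encodes a subunit of AP-1, had 1639 and 273 normalized counts in the wild-type and 2568 and 16061 in the Sirt7-/- libraries, and the pro-B library of Sirt7-/- replicate 2 had 15802. Jund, the most abundant of the list, had 64464 and 45845 in the wild-type and 57925 and 57159 in the Sirt7-/- libraries, which overlapped. DESeq2, edgeR and limma called 0 of the 18, and 0 had an unadjusted limma p under 0.05. In pro-B cells of the same mice the median was 1.04. The part of handling in the other results was not tested.

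T cell genes had a mixed pattern. Of 24 listed rows, 11 reached the filter, 6 of them higher and 2 lower without overlap (54.5% and 18.2%, beside 22.8% and 20.3% of all genes). Cd3e, Cd3g, Bcl11b and Cd28 were at 0 in all 4 pre-B libraries. Thy1, which early pro-B cells also express, had 22.0 and 14.2 normalized counts in the wild-type and 43.7 and 323 in the Sirt7-/- libraries (log2 fold change 2.69, limma adjusted p = 0.230). Zap70, a kinase of the T cell receptor, had 135 and 171 normalized counts in the wild-type and 166 and 280.3 in the Sirt7-/- libraries. The genotypes stood apart for Thy1 and overlapped for Zap70. Notch1, the most abundant of the list, had 11042 and 10274 normalized counts in the wild-type and 8772 and 9419 in the Sirt7-/- libraries. Below the filter, Trbc1 had 0 and 0 in the wild-type and 7.46 and 50.6 normalized counts in the Sirt7-/- libraries, and Trbc2 0 and 0 against 5.33 and 16.9. Il2rb, shared by NK and T cells, had 12.5 and 7.65 normalized counts in the wild-type and 27.7 and 685 in the Sirt7-/- libraries. Siglech, a marker of plasmacytoid dendritic cells, had 0 and 3.28 in the wild-type and 0 and 497 in the Sirt7-/- libraries. Of the 6 rows listed for that cell type, 4 reached the filter, 2 of them higher (50.0%, beside 22.8% of all genes) and 0 lower without overlap. Cox6a2, the most abundant, had 2669 and 1711 in the wild-type and 1766 and 1228.5 in the Sirt7-/- libraries. The summed level of this list was 3897 and 2318 against 4255 and 3697. Sirt7-/- replicate 2 was the highest pre-B library for Thy1, Zap70, Trbc1, Trbc2, Il2rb and Siglech and the lowest for Cox6a2. The pro-B library of the same mouse was also the highest pro-B library for Il2rb, with 1007 against at most 427. The T cell list had a median of 0.16 in Sirt7-/- replicate 1 and 1.48 in replicate 2, and its summed level was 14726 and 13755 in the wild-type and 12766 and 14467 in the Sirt7-/- libraries. The 12 NK cell markers, of which 5 reached the filter, summed to 446 and 297 against 503 and 1946. The part of other cells in these values was not tested.

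**Figure D5:**
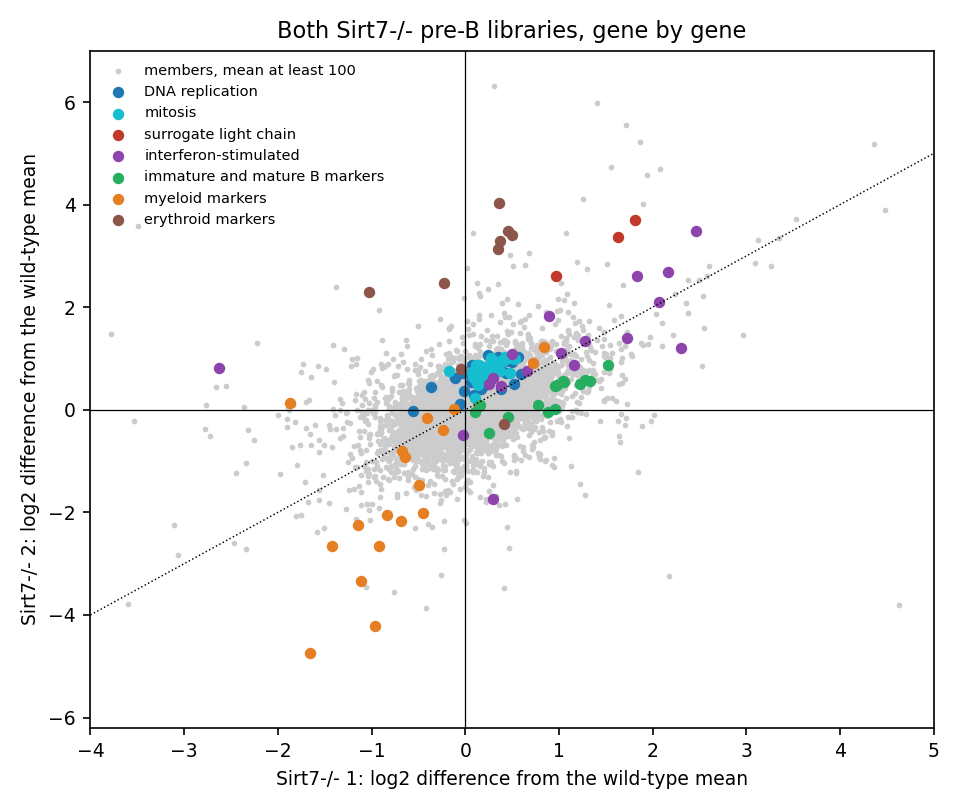
Log2 difference from the wild-type mean in Sirt7-/- replicate 1 (horizontal) and replicate 2 (vertical), for the 11778 genes averaging 100 normalized counts or more (grey, 11 of them outside the axes) and for the genes of 7 lists. Above the dotted line of equal difference lie 30 of 30 mitosis, 34 of 35 replication, 8 of 9 erythroid and 3 of 4 surrogate light chain genes, and all 15 mature B markers lie below it.

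The 12 genes with the widest gap between the genotypes in each direction, among those averaging 100 normalized counts or more in the higher genotype, were taken whatever their test. Of the 12 higher ones, Oas3, Lsm12 and Oas1a were called. Fxyd6, a regulator of the sodium pump, had 10.5 and 10.9 normalized counts in the wild-type and 52.2 and 209 in the Sirt7-/- libraries, and the chemokine gene Ccl5 2.09 and 2.19 in the wild-type and 11.7 and 325 in the Sirt7-/- libraries. Ryr2, a calcium channel, had 42.9 and 37.2 normalized counts in the wild-type and 209 and 172 in the Sirt7-/- libraries and 0 reads in every pro-B library. The others were Gpc2 and Rpp14, each listed on more than 1 row of the table, and AL589651.3, Gm29253, Gm28557 and Gm26532. Rpp14 had 6.27 and 8.75 normalized counts in the wild-type and 155 and 180.2 in the Sirt7-/- libraries, but in pro-B cells 181 and 5.59 and 8.25 and 191, so that its level changed by more within a genotype there than between genotypes here.

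Of the 12 lower ones, 2 were called, Sirt7 among them. Cpt1b, a carnitine transferase, had 607 and 743 normalized counts in the wild-type and 192 and 160.1 in the Sirt7-/- libraries, and Elane, neutrophil elastase, 649 and 637 in the wild-type and 204 and 23.2 in the Sirt7-/- libraries, while Fcnb, a myeloid ficolin, had 209 and 195 normalized counts in the wild-type and 59.7 and 0 in the Sirt7-/- libraries. BC022960 had 347 and 313 normalized counts in the wild-type and 37.3 and 68.5 in the Sirt7-/- libraries, and the histone gene Hist1h2bq 160.0 and 159 in the wild-type and 49.0 and 45.3 in the Sirt7-/- libraries. Elane and Fcnb were lower in Sirt7-/- replicate 2 than in replicate 1, and both lay below the wild-type libraries. Rac1, a small GTPase, had 20783 and 21721 normalized counts in the wild-type and 7221 and 7157 in the Sirt7-/- libraries and pro-B values of 8835 and 26021 and 9922 and 26384, which differed almost as much between the mice of each genotype (limma adjusted p = 0.300). Gm8898, Gm25951, Rslcan18 and Zfp708 were also among the 12, and Zfp708 for example had 155 and 202 normalized counts in the wild-type and 0 and 8.43 in the Sirt7-/- libraries but 0 reads in 3 of the 4 pro-B libraries. The lowest limma adjusted p among the uncalled genes of both groups was 0.0903.

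Whether an effect of genotype differed between the stages was tested by the interaction in the same fit. It called 1 of 17649 genes (0.00567%), Trim26, which encodes a ubiquitin ligase, with 3723 and 3531 normalized counts in the wild-type and 4677 and 4434 in the Sirt7-/- libraries in pre-B cells and 4806 and 4751 against 1583 and 1561 in pro-B cells (interaction 1.93, SE 0.120, limma adjusted p = 0.0173). With each mouse as a block, an alternative chosen after seeing the data, limma called 0 genes, with 1286 at an unadjusted p under 0.05, and without the block edgeR called 1 gene and DESeq2 104. The interactions of Lsm12, Nudcd3, Gm3839 and Tuba1a had limma adjusted p-values between 0.0546 and 0.0560. Of the 15 genes called in pre-B cells, 11 had the same sign in pro-B cells, and 7 had a pro-B log2 fold change under 0.1 in size.

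A separate table holds cultures of pro-B cells of both genotypes with an empty vector. There Sirt7 had 1324 and 905 in the wild-type and 336 and 387 in the Sirt7-/- cultures and Pcyt2 3378 and 2839 in the wild-type and 567 and 424 in the Sirt7-/- cultures. Lsm12 had 1546 and 1632 in the wild-type and 1544 and 1554 in the Sirt7-/- cultures, Nudcd3 3932 and 4302 in the wild-type and 3756 and 4069 in the Sirt7-/- cultures and Tuba1a 4853 and 6535 in the wild-type and 5268 and 6753 in the Sirt7-/- cultures, without the separation of sorted pre-B cells. Oas1a had 473 and 1188 in the wild-type and 462 and 498 in the Sirt7-/- cultures, where the high library was wild-type. By list, 1 of 16 interferon-stimulated genes was higher in the Sirt7-/- cultures (median -0.79), 1 of 35 replication genes (-0.18) and 1 of 30 mitosis genes (-0.10). Of the immature and mature B markers 10 of 11 were higher there (median 1.06), and of the cytosolic ribosomal protein genes 48 of 80 (0.018). Of the 15 called genes, 11 are listed in that table and 2 had the same sign as in sorted pre-B cells. No test was made across the tables.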

How the data were processed

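RNA-seq libraries were made by the authors from poly(A) RNA with a strand-specific kit and sequenced as read pairs. Per the study's methods, Salmon was run on mm10 with selective alignment and its GC option, Tximeta read in the transcript estimates, and DESeq2's median of ratios scaled them. The authors deposited the result: the signal values are counts per gene scaled by 1 factor per library. Dividing by that factor gave whole reads for 100% of the values of the sorted cells (tolerance 0.001), between 50004827 and 55536608 per library, although these may be rounded estimates. The cultured cells stand in a deposited table of their own and were used for description alone.

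Here, the 17649 genes that reached 10 normalized counts in 2 or more sorted libraries out of 8 were fitted with limma 3.58.1 in R 4.3.3 on log2(normalized count + 1), with 4 groups of 2 libraries and 4 residual degrees of freedom, a variance trend and Benjamini-Hochberg adjustment. The fit was also run on simulated counts, with no outcome given here. Alternatives were other pseudocounts, filters and scalings, edgeR 4.0.16 and DESeq2 1.42.0 on the recovered reads, blocks and leaving out each pre-B library. Genes were named by rule: all called genes, the 12 with the widest gap between genotypes in each direction, genes the study names, and members needed to show each list. The genes described and the lists were chosen with earlier results of these data known. Positions are from GENCODE M21 and promoter windows from RefSeq (GRCm38.p6), matched by symbol for 10058 genes. In the table, 214 symbols stand on more than 1 row. Of the genes the rule names, 1 called gene and others are not reported here, though counts include them. The Pax5 rescue table and the ChIP-seq peak lists were not used here.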

Additional observations from a re-analysis of the deposited data

Results flagged for a closer look

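Trim26 differed between the stages in its response to genotype by the interaction term (1.93 on the log2 scale, limma adjusted p = 0.0173), being higher in both Sirt7-/- pre-B libraries and lower in both Sirt7-/- pro-B libraries. With each mouse as a block, chosen after seeing the data, the interaction called 0 genes. AL589651.3 also had opposite orders, with 0 and 13.1 normalized counts in the wild-type and 408 and 172 in the Sirt7-/- pre-B libraries, against 1113 and 992 in the wild-type and 527 and 918 in the Sirt7-/- pro-B libraries. Its interaction was 6.74 with a limma adjusted p of 0.659.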

How the results depend on the processing

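The count of genes called in pre-B cells was 15. It was 14 with TMM scaling, 11 with a filter of at least 50 counts, 13 with no filter, of which 9 were among the 15, and 21 with the pro-B share taken out of each pre-B library, again with 9 of the 15. The 6 lost there were Oas1a, Oas3, Bri3bp, 1500009L16Rik, Gm15947 and Gm11579 (limma adjusted p between 0.0739 and 0.572), with log2 fold changes of 1.95, 3.27, 0.89, 3.42, 2.69 and 1.32 in that order against 2.09, 2.74, 0.92, 4.67, 3.98 and 3.93 as reported, and without a filter the 6 lost had adjusted p-values between 0.0518 and 0.0594. It moved to 23 with a pseudocount of 0.5 and to 5 with a pseudocount of 10, to 5 by edgeR, to 696 of the described genes by DESeq2, and to 0 with the pre-B libraries fitted alone (1651 at an unadjusted p under 0.05). Leaving out 1 pre-B library at a time gave between 13 and 152 calls, and the lone library left in its group is then assumed to vary like the other groups. The 152 came without Sirt7-/- replicate 1 and included all 15 genes. Of the 15, 6 were among the 17 calls without Sirt7-/- replicate 2, 5 among the 13 without wild-type replicate 1 and 4 among the 16 without wild-type replicate 2. The interaction, which called 1 gene, called 104 by DESeq2, 11 with the pro-B share taken out and between 1 and 12 with 1 pre-B library left out (12 without Sirt7-/- replicate 1, 9 without Sirt7-/- replicate 2 and 5 without wild-type replicate 2).

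Replicate numbers name different mice in the 2 genotypes. The study made its replicates on different days, and whether a number marks a shared day was not given in the sources used here. The deviations of same-numbered libraries had a correlation across 11778 genes of 0.0943 between the genotypes in pre-B cells and 0.156 in pro-B cells, of 0.119 and 0.180 between the stages of one mouse, and of 0.0941 and -0.0174 between other groups, so that with 2 numbers the data do not settle whether they pair the libraries. With the replicate block, 7 genes were called, all among the 15, and the other 8 had a limma adjusted p of 0.0703. Blocking by mouse across the stages, chosen after seeing the data, gave 0 calls for the interaction (1286 at an unadjusted p under 0.05).

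Some log2 fold changes turned. With the pro-B share taken out, Igll1 was at -1.96, Kit at -2.32 and Cd40 at 0.0053, and Vpreb1, Vpreb2 and Dntt were at 0 in every pre-B library, so that more was removed than the libraries held. Leaving out 1 library at a time, Kit ran from -1.38 (without Sirt7-/- replicate 2) to 2.39 (without Sirt7-/- replicate 1) and was at -0.017 without wild-type replicate 1. Cd74 ran from -0.20 (without wild-type replicate 2) to 1.06 (without wild-type replicate 1), and Ifit2 from -2.62 (without Sirt7-/- replicate 2) to 0.82 (without Sirt7-/- replicate 1). Cd40 ran from -0.46 (without Sirt7-/- replicate 1) to 0.25 (without Sirt7-/- replicate 2) and was at 0.024 without wild-type replicate 1. Having 2 mice per genotype limits every comparison.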
